A study of Nothobranchius furzeri with 16 samples.

Results

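Gene expression in the brain of old and young killifish (Nothobranchius furzeri) of the strain MZM-0410 was compared in 8 total RNA libraries. Of these, 4 came from fish at 39 weeks post hatching (wph), and 4 from fish at 5 wph. These ages span the whole age range sampled in the series, which holds 16 libraries in 4 groups. MZM-0410 is a laboratory strain derived from the wild, and this annual fish completes its life within a season. The study describes fish that were fasted and killed at one hour of the day, and no treatment or transgene set the groups apart, so that only age differs by the labels. The further groups, MZM-0410 at 12 wph and the short-lived strain GRZ at 5 wph, are used here for levels. They also enter the scaling of the levels and larger fits of the same comparison, given as alternatives. No test compares them with another group.

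The comparison covers every gene with enough counts. Of 26739 annotated genes 17938 were tested, and of these 5165 carried the symbol of a human orthologue. Genes that share a symbol are called copies here. Whole brains were lysed, so a gene can differ because cells of a type are fewer or because each cell holds less of its RNA, and these cannot be told apart. Ageing brains of vertebrates are known for a decline in cell production and for activation of glia and innate immunity. The fish brain differs from that of mammals in keeping many dividing zones into adult life. Steroid hormones released on stress, the state of neuronal activity and the daily clock also set the RNA levels of brain cells within hours.

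Total counts were 8.27 to 8.74 M at 39 wph and 3.93 to 8.24 M at 5 wph (M, 1000000 counts). The mean total was 8.51 ± 0.26 M at 39 wph and 5.35 ± 1.95 M at 5 wph (SD, n = 4 each; exact permutation test of the means, two-sided p = 0.0286, the smallest that 4 against 4 can give). At the depth as deposited, 21428 ± 50.9 genes at 39 wph and 20928 ± 367 genes at 5 wph had at least 1 count (exact permutation p = 0.0857). With all libraries thinned to the smallest total, the numbers were 20716 ± 50.5 and 20668 ± 62.8 (exact permutation p = 0.286), so that more genes were not detected in old fish beyond the spread at equal depth. The defining markers of neurons (10 named genes, summed 2967 to 3229 CPM at 39 wph and 3566 to 3694 CPM at 5 wph; CPM, counts per 1000000 counts of the library) and of oligodendrocytes (574 to 748 CPM and 1111 to 1312 CPM) were present in every library. Those of ependyma were near 0 (3.60 to 5.89 CPM at 39 wph and 3.20 to 5.03 CPM at 5 wph), and the named copy of SYT1, a synaptic vesicle calcium sensor, stayed below 2.35 CPM.

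A total of 2203 genes were higher and 2257 lower at 39 wph than at 5 wph at an adjusted p below 0.05 (edgeR quasi-likelihood test with Benjamini-Hochberg adjustment), 12.3% and 12.6% of the genes tested. Both together made up 24.9%. Most differences were small. The median fold was 1.41 among the genes that were higher and 1.38 among those that were lower, 311 and 306 genes differed more than 2-fold, and only 32 and 63 more than 4-fold. CPM values of the 4 old and the 4 young libraries did not overlap for 26.7% of the genes tested, and 3867 of the changed genes were among these. The share of changed genes grew with expression level, from 5.57% higher and 6.49% lower in the fifth of genes with the least counts to 20.3% and 18.2% in the fifth with the most. Named genes changed more often than unnamed ones (42.3% against 17.8%), and the names come from tables ranked by change. Of the named genes 19.8% were higher and 22.5% lower, and the list counts given below are to be read against these shares.

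**Figure D1:**
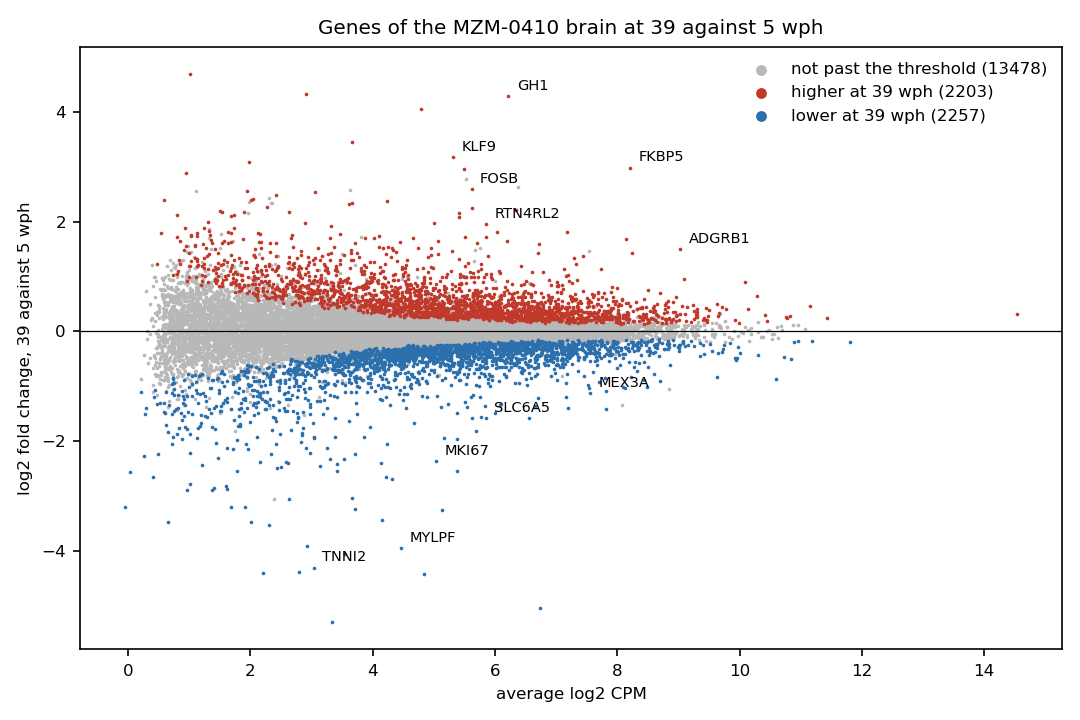
Log2 fold change at 39 against 5 wph (y axis) over average log2 CPM (x axis) for the 17938 genes tested, with 2203 genes higher and 2257 lower in colour. Genes named by rule are written beside their points; the genes with the largest fold changes lie at low and middle expression.

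Libraries of one age correlated with Spearman's rho of 0.984 to 0.988 at 39 wph and at 5 wph, and libraries of different age with 0.960 to 0.977. The median SD of log2 CPM within a group was 0.155 at 39 wph and 0.166 at 5 wph, and at equal depth 0.187 and 0.176. The spread between fish was thus of like size in old and young brains. In a principal component analysis the leading axis (48.7% of the variance) separated the ages, with the 39 wph libraries at 10.4 to 24.7 and the 5 wph libraries at -22.8 to -7.59. Nearest to the other age were 39 wph replicate 9 and 5 wph replicate 15, which stood apart from their groups on the second component (15.2%) at 20.0 and -18.1.

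Of the named genes higher in old brains, the smallest p belonged to RTN4RL2 (Nfu_g_1_015909), a relative of the Nogo receptor found on axons. It had 92.8, 89.01, 80.6 and 93.1 CPM at 39 wph, against 26.0, 21.2, 18.99 and 26.4 CPM at 5 wph. Each old library lay above 80 CPM and each young one below 30 CPM, with a log2 fold change of 1.95 ± 0.10, adjusted p = 4.59e-06.

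For ADGRB1 (Nfu_g_1_010009), an adhesion receptor that binds phosphatidylserine on dying cells, the level was 764 ± 58.1 CPM at 39 wph and 271 ± 39.4 CPM at 5 wph (SD, n = 4 each; log2 fold change 1.501 ± 0.10, adjusted p = 5.57e-06). Further genes at this end were NEBL (Nfu_g_1_011303), an actin filament protein (log2 fold change 0.76 ± 0.05), CHN1 (Nfu_g_1_017551), a Rac GTPase activating protein (1.02 ± 0.07), and DNAJB5 (Nfu_g_1_006784), a J-domain co-chaperone (1.68 ± 0.13). Other copies of these 3 genes differed less or did not pass: NEBL (Nfu_g_1_006442) at 0.29 ± 0.17, adjusted p = 0.260, CHN1 (Nfu_g_1_014035) at -0.16 ± 0.08, adjusted p = 0.176 and DNAJB5 (Nfu_g_1_009125) at 0.47 ± 0.15, adjusted p = 0.0421. The last of these missed the threshold without replicate 9 or 10 at 39 wph or replicate 11, 12 or 14 at 5 wph.

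Among genes lower in old brains, MEX3A (Nfu_g_1_011103), an RNA-binding protein of stem cells, and SOX11 (Nfu_g_1_015127), a transcription factor of newborn neurons, had the smallest p with genes of mitosis. MEX3A had 117, 117, 130.3 and 109 CPM at 39 wph, against 257, 238, 271 and 265 CPM at 5 wph. All old libraries were below all young ones, by 2.17-fold on average (log2 fold change -1.12 ± 0.07, adjusted p = 5.57e-06). SOX11 had 20.7, 24.7, 22.4 and 19.6 CPM at 39 wph, against 52.2, 57.0, 55.0 and 54.03 CPM at 5 wph, again without overlap (log2 fold change -1.32 ± 0.09, adjusted p = 5.58e-06). The oncofetal RNA-binding protein IGF2BP3 (Nfu_g_1_013299) was 4.98-fold lower (log2 fold change -2.32 ± 0.17, adjusted p = 8.75e-06), and BPTF (Nfu_g_1_019726), one of the 2 copies of a chromatin remodelling subunit, was 5.35-fold lower (log2 fold change -2.42 ± 0.18, adjusted p = 9.98e-06). Its second copy BPTF (Nfu_g_1_019785) had nearly the same level at both ages, with 251 ± 4.15 CPM at 39 wph and 268 ± 11.7 CPM at 5 wph (log2 fold change -0.09 ± 0.05, adjusted p = 0.220).

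Large fold changes without overlap of the ages were found for hormone targets on the higher side and muscle proteins on the lower side. KLF9 was 9.07-fold higher, GADD45B (Nfu_g_1_014962) 8.46-fold and FKBP5 7.92-fold. TNNI2 (Nfu_g_1_005734), a troponin of fast muscle, was 19.7-fold lower, and MYLPF (Nfu_g_1_007569), a myosin light chain, 15.5-fold. The 4 muscle markers together summed to 6.27 to 9.51 CPM at 39 wph and 28.9 to 145 CPM at 5 wph, and muscle tissue on the dissected brains was not tested as a source. Of genes without a name, Nfu_g_1_025591 (4.22, 2.995, 1.86 and 2.31 CPM at 39 wph, against 0.509, 0, 0 and 0 CPM at 5 wph) and Nfu_g_1_012595 (5.67, 8.63, 16.1 and 17.9 CPM at 39 wph, against 0.254, 0.957, 0.427 and 0.429 CPM at 5 wph) had the largest fold changes upwards. On the other side, Nfu_g_1_019706 had 0.362, 0.958, 0.580 and 0.231 CPM at 39 wph, against 26.5, 32.2, 19.4 and 6.22 CPM at 5 wph, and Nfu_g_1_002091 had 2.65, 11.7, 9.74 and 1.501 CPM at 39 wph, against 314, 286, 176 and 65.2 CPM at 5 wph. In each of these 4 genes the 2 ages did not overlap. The 2 lower genes spread widely among the young libraries, and a source outside the brain was not tested for them.

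**Figure D2:**
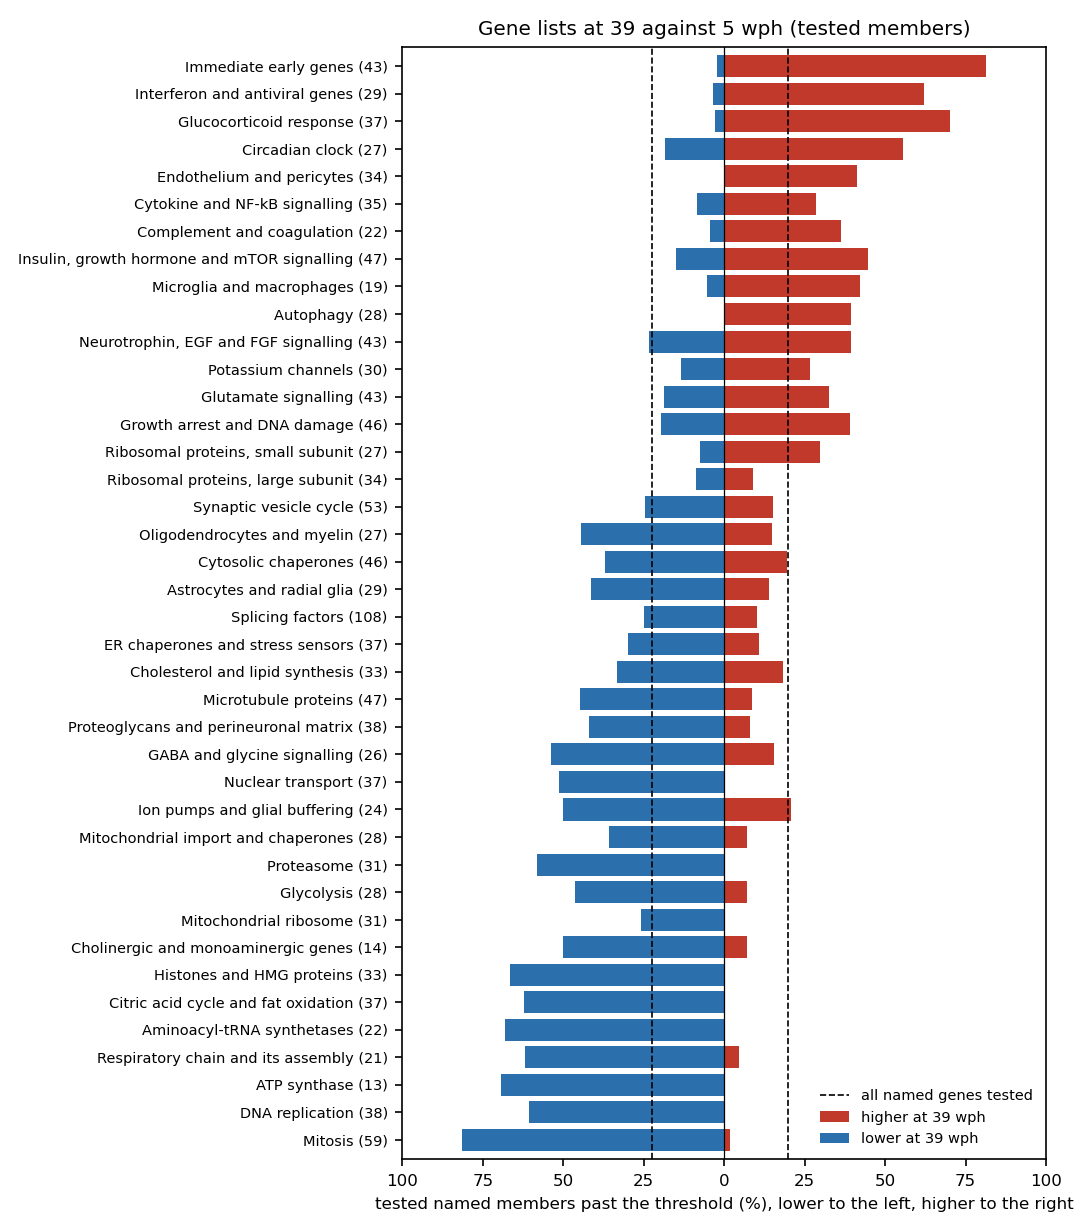
Share of tested named members that were higher (right) or lower (left) at 39 wph than at 5 wph, for a selection of the gene lists described here, ordered by their median log2 fold change. Among the lists not drawn are neuron markers, neurogenic factors and axon guidance. Dashed lines mark the 19.8% higher and 22.5% lower of all named genes tested; immediate early genes are at the top and mitosis at the bottom.

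Glucocorticoids act through the receptor NR3C1, which enters the nucleus on binding the hormone and switches on targets that include its own co-chaperone FKBP5. Of 37 named targets tested, 26 were higher, 1 was lower and 10 did not pass at 39 wph, with a median log2 fold change of 0.58 against -0.03 for all named genes tested, and the lower count was 2 without replicate 10 at 39 wph. FKBP5 (Nfu_g_1_021435) had 378, 394, 594 and 711 CPM at 39 wph, against 61.8, 56.0, 49.3 and 96.7 CPM at 5 wph. No old library was below 378 CPM and no young one above 96.7 CPM (log2 fold change 2.99 ± 0.24, adjusted p = 1.8e-05). KLF9 (Nfu_g_1_008967), a transcription factor induced by the hormone, had 48.3, 48.4, 67.8 and 105 CPM at 39 wph, against 8.14, 5.03, 6.83 and 10.9 CPM at 5 wph. Its levels differed by a wide margin between ages and also between the fish of one age (log2 fold change 3.18 ± 0.30, adjusted p = 3.91e-05).

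IRS2, which carries the insulin signal, was higher in both of its copies (Nfu_g_1_008662, log2 fold change 1.82 ± 0.16, adjusted p = 2.72e-05, and Nfu_g_1_005777, 1.14 ± 0.13, adjusted p = 0.000142). The transcription factor CEBPB (Nfu_g_1_001454) was 5.07-fold higher (log2 fold change 2.34 ± 0.22, adjusted p = 3.5e-05). NR3C1 itself (Nfu_g_1_005292) had 72.1 ± 3.25 CPM at 39 wph and 51.9 ± 2.98 CPM at 5 wph (SD, n = 4 each; log2 fold change 0.47 ± 0.07, adjusted p = 0.000564), a smaller difference than that of FKBP5 or KLF9. The 1 target that was lower, PCK1 (Nfu_g_1_013404), an enzyme of glucose synthesis, had 3.01, 2.88, 2.55 and 0.577 CPM at 39 wph, against 2.80, 9.45, 6.19 and 5.79 CPM at 5 wph, with overlap between ages, and missed the threshold without replicate 12 at 5 wph.

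Immediate early genes are transcribed within minutes of neuronal activity or other stimulation, without new protein. Of 43 tested, 35 were higher and 1 was lower, and the median log2 fold change of 0.84 was the highest of the lists with more than 2 members. FOSB (Nfu_g_1_000355), a subunit of AP-1, had 83.7, 68.0, 75.6 and 93.9 CPM at 39 wph, against 13.7, 10.8, 10.9 and 19.1 CPM at 5 wph. The 4 old libraries were within a narrow range, and all young libraries were well below it (log2 fold change 2.59 ± 0.16, adjusted p = 5.57e-06). NPAS4 (Nfu_g_1_004262), a transcription factor induced by calcium entry in neurons, had 242, 189, 209.5 and 247 CPM at 39 wph, against 93.7, 79.9, 82.1 and 95.6 CPM at 5 wph (log2 fold change 1.34 ± 0.09, adjusted p = 8.16e-06). Its groups did not overlap either.

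FOS (Nfu_g_1_018967) was at 46.7 ± 2.83 CPM at 39 wph and 17.9 ± 3.74 CPM at 5 wph (SD, n = 4 each; log2 fold change 1.40 ± 0.13, adjusted p = 3.29e-05), PLK2 (Nfu_g_1_008977), a kinase that weakens active synapses, changed by 1.23 ± 0.08, adjusted p = 7.12e-06 on the log2 scale, and CSRNP1 (Nfu_g_1_020439) by 1.65 ± 0.13, adjusted p = 1.8e-05. NR4A1 (Nfu_g_1_021198), an orphan nuclear receptor, had 21.9, 15.1, 16.6 and 19.2 CPM at 39 wph, against 3.82, 2.39, 5.33 and 3.64 CPM at 5 wph. The 2 ages were separate, with a log2 fold change of 2.32 ± 0.22, adjusted p = 3.72e-05. BDNF (Nfu_g_1_003893), a neurotrophin and late target of activity, had 30.9 ± 2.42 CPM at 39 wph and 24.4 ± 1.99 CPM at 5 wph. This difference was small (log2 fold change 0.35 ± 0.09, adjusted p = 0.0165) and missed the threshold without replicate 6 at 39 wph or replicate 12 or 14 at 5 wph. The 1 gene of the list that was lower was ZFP36L1 (Nfu_g_1_021816), an mRNA decay factor (-0.26 ± 0.09, adjusted p = 0.0470), and it missed the threshold without replicate 6, 9 or 10 at 39 wph or replicate 11, 12, 14 or 15 at 5 wph.

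**Figure D3:**
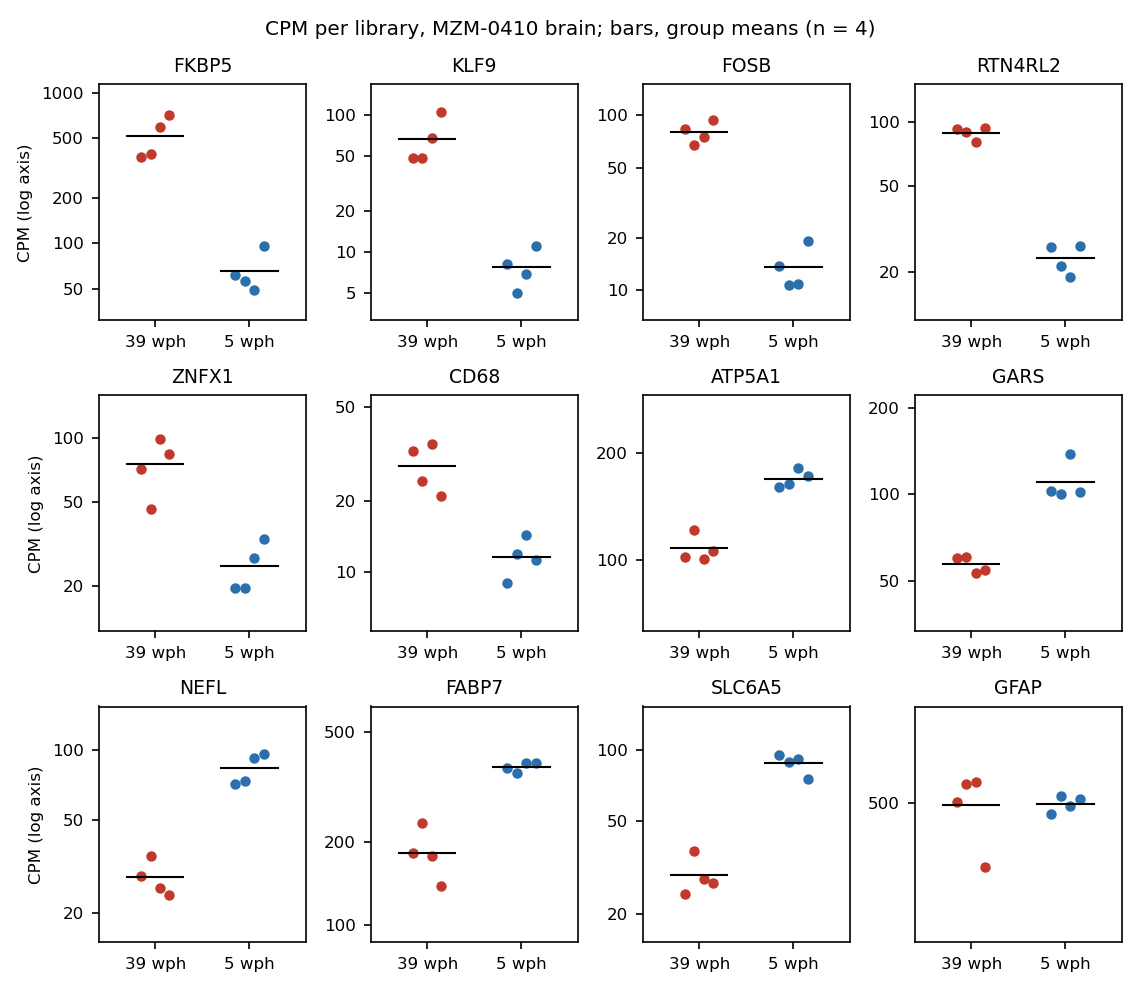
CPM (log axis) of 12 genes in the 4 libraries at 39 wph (left) and the 4 at 5 wph (right) of each panel, with bars at the group means. In 11 panels the ages do not overlap; GFAP, a glial filament, overlaps and did not pass the test.

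Insulin and growth factors act through receptor substrates, the kinase AKT and mTOR, and through binding proteins that hold the ligand. Of 47 named genes of this group 21 were higher and 7 lower (median log2 fold change 0.24), and the lower count was 4 without replicate 9 at 39 wph. IGFBP1 (Nfu_g_1_002545), a binding protein made in fasting, had 21.9, 18.3, 25.2 and 50.6 CPM at 39 wph, against 5.34, 5.14, 6.40 and 5.57 CPM at 5 wph. The lowest old library was still above the highest young one (log2 fold change 2.38 ± 0.32, adjusted p = 0.000381). In contrast, IGFBP2 (Nfu_g_1_003732), a binding protein made in the brain, was lower (-0.53 ± 0.11, adjusted p = 0.00395). IGF2 (Nfu_g_1_008157), the growth factor, had 42.0 ± 2.19 CPM at 39 wph and 32.1 ± 3.82 CPM at 5 wph (log2 fold change 0.39 ± 0.09, adjusted p = 0.00914).

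Feedback inhibitors of growth factor signalling were also among the genes that were higher. Of 43 named genes of neurotrophin, EGF and FGF signalling 17 were higher and 10 lower (39.5% and 23.3%, against 19.8% and 22.5% of all named genes). ERRFI1 (Nfu_g_1_020824), which blocks the EGF receptor, had 53.9, 48.9, 55.6 and 61.7 CPM at 39 wph, against 31.3, 29.7, 29.2 and 28.9 CPM at 5 wph. Old and young libraries did not overlap (log2 fold change 0.89 ± 0.09, adjusted p = 4.63e-05). DUSP4 (Nfu_g_1_006395), a MAP kinase phosphatase, changed by 0.89 ± 0.13, adjusted p = 0.000544. Among the lower genes were ERBB4 (Nfu_g_1_010192), a neuregulin receptor, at 46.7 ± 15.6 CPM at 39 wph and 87.2 ± 10.9 CPM at 5 wph (log2 fold change -0.90 ± 0.18, adjusted p = 0.00395) and its ligand NRG1 (Nfu_g_1_010806) at a log2 fold change of -0.59 ± 0.09, adjusted p = 0.000653. GFRA2 (Nfu_g_1_009295), a receptor of neurturin, and MDK (Nfu_g_1_008095), a heparin-binding growth factor, were lower, with log2 fold changes of -0.41 ± 0.06 and -0.42 ± 0.09.

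The clock runs on feedback between activators and the repressors of the PER, CRY and NR1D families. Of 27 named clock genes 15 were higher and 5 lower in fish that the study killed at one hour of the day. NR1D2, a repressor, has 4 tested copies. The copy Nfu_g_1_020882 had 42.2, 42.5, 43.2 and 66.2 CPM at 39 wph, against 13.2, 11.5, 16.0 and 9.005 CPM at 5 wph, without overlap (log2 fold change 1.98 ± 0.19, adjusted p = 4.03e-05). A second, Nfu_g_1_010257, was also higher (0.97 ± 0.12, adjusted p = 0.000178), whereas Nfu_g_1_013151 was lower (-0.38 ± 0.10, adjusted p = 0.0179) and missed the threshold without replicate 6 at 39 wph or replicate 15 at 5 wph. CIART (Nfu_g_1_016971), another repressor, had 14.7, 14.6, 15.5 and 13.2 CPM at 39 wph, against 30.3, 29.1, 32.2 and 37.3 CPM at 5 wph. It was lower in every old library (log2 fold change -1.14 ± 0.10, adjusted p = 3.38e-05), and so were PER3 (Nfu_g_1_021184) (-0.53 ± 0.09, adjusted p = 0.00195) and the activator RORA (Nfu_g_1_008006) (-0.47 ± 0.07, adjusted p = 0.000487), while HLF (Nfu_g_1_000888), an output factor, was higher (0.995 ± 0.13, adjusted p = 0.000349).

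Of 27 genes of other nuclear receptors and vitamin A 9 were higher and 5 lower, and the lower count was 3 without replicate 15 at 5 wph. Their shares were 33.3% and 18.5%, against 19.8% and 22.5% of all named genes. VDR (Nfu_g_1_021401), the vitamin D receptor, had 59.3 ± 4.36 CPM at 39 wph and 29.8 ± 2.44 CPM at 5 wph (log2 fold change 0.997 ± 0.09, adjusted p = 2.68e-05). Among those that were lower was CYP26B1 (Nfu_g_1_009526), which degrades retinoic acid, with 13.6, 16.1, 11.9 and 13.4 CPM at 39 wph, against 27.5, 36.1, 30.7 and 34.7 CPM at 5 wph (log2 fold change -1.24 ± 0.12, adjusted p = 4.02e-05). No old library reached the young range. CRABP1 (Nfu_g_1_003370), which binds it, fell by 1.504 (SE 0.23, adjusted p = 0.000693) on the log2 scale, and ALDH1A2 (Nfu_g_1_003908), which makes it, had a log2 fold change of -0.58 ± 0.16, adjusted p = 0.0192 and missed the threshold without replicate 15 at 5 wph. CYP19A1 (Nfu_g_1_007967), the aromatase that makes oestrogen in radial glia of fish, had 70.9, 53.9, 56.1 and 63.3 CPM at 39 wph, against 20.9, 17.5, 23.5 and 46.3 CPM at 5 wph. It was higher in each old library than in any young one (log2 fold change 1.199 ± 0.23, adjusted p = 0.00327).

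Most named genes of mitochondrial energy metabolism were lower in old brains. Mitochondria oxidise pyruvate and fatty acids in the citric acid cycle and beta-oxidation, pass the electrons along the respiratory chain and use the proton gradient to make ATP. Of 37 named genes of the first step 23 were lower and none was higher with edgeR (and 0 at an unadjusted p below 0.05, with DESeq2 and with limma-voom), with a median log2 fold change of -0.42. Of 21 genes of the respiratory chain 13 were lower and 1 higher (-0.44), and of 13 of ATP synthase 9 were lower and none higher (-0.56, with 1 at an unadjusted p below 0.05, 0 with DESeq2 and 0 with limma-voom). The median of all named genes tested was -0.03.

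ACAA2 (Nfu_g_1_007388), the last enzyme of mitochondrial beta-oxidation, had 24.95, 30.5, 26.1 and 24.2 CPM at 39 wph, against 49.9, 54.8, 54.8 and 48.5 CPM at 5 wph. No old library overlapped with a young one (log2 fold change -0.98 ± 0.09, adjusted p = 3.5e-05). HADHA (Nfu_g_1_021784), of the same pathway, changed by -0.76 ± 0.07, adjusted p = 3.5e-05, and CPT1A (Nfu_g_1_008041), which admits fatty acids to mitochondria, by -0.65 ± 0.06, adjusted p = 3.38e-05. MDH2 (Nfu_g_1_001755), a citric acid cycle enzyme, had 161 ± 12.1 CPM at 39 wph and 245 ± 16.3 CPM at 5 wph (log2 fold change -0.60 ± 0.07, adjusted p = 0.000103).

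CYC1 (Nfu_g_1_020857) and UQCRC1 (Nfu_g_1_021073), subunits of complex III, fell by 0.62 (SE 0.08, adjusted p = 0.000314) and 0.58 (SE 0.08, adjusted p = 0.00052), and COX5A (Nfu_g_1_003504) of complex IV by 0.56 (SE 0.08, adjusted p = 0.000486), each on the log2 scale. COX6B1 (Nfu_g_1_018035) was the 1 chain gene that was higher (0.28 ± 0.09, adjusted p = 0.0418), and it missed the threshold without replicate 6, 8, 9 or 10 at 39 wph or replicate 12, 14 or 15 at 5 wph. ATP5A1 (Nfu_g_1_006324), the alpha subunit of ATP synthase, had 103, 122, 101.2 and 106 CPM at 39 wph, against 161, 164, 182 and 173 CPM at 5 wph. Again no old library reached the young range (log2 fold change -0.65 ± 0.07, adjusted p = 8.89e-05). ATP5G3, a ring subunit, was lower in both copies (Nfu_g_1_017674, -0.59 ± 0.08, adjusted p = 0.000486, and Nfu_g_1_002074, -0.997 ± 0.14, adjusted p = 0.000511).

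Glycolysis had 13 of 28 named genes lower and 2 higher, and the higher count was 1 without replicate 9 or 10 at 39 wph or replicate 12, 14 or 15 at 5 wph. TPI1 (Nfu_g_1_001086) and ENO1 (Nfu_g_1_010272) were lower, with log2 fold changes of -0.52 ± 0.08 and -0.37 ± 0.06. GAPDHS (Nfu_g_1_016838), a glyceraldehyde phosphate dehydrogenase, had 786, 959, 736 and 719 CPM at 39 wph, against 1119, 1090.3, 1252 and 1141 CPM at 5 wph (log2 fold change -0.52 ± 0.08, adjusted p = 0.000977). A gene named GAPDH (Nfu_g_1_001128) was lower as well (2.77, 3.47, 4.52 and 2.19 CPM at 39 wph, against 21.6, 31.3, 16.0 and 4.72 CPM at 5 wph, log2 fold change -2.53 ± 0.44, adjusted p = 0.00162). The muscle markers, whose sums are given above, were lower too, and their part in this value was not tested. SLC2A1 (Nfu_g_1_021538), the main glucose transporter at brain vessels, was higher, with 108 ± 6.26 CPM at 39 wph and 86.0 ± 11.1 CPM at 5 wph and with overlap of the ages (log2 fold change 0.33 ± 0.08, adjusted p = 0.0145).

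Mitochondrial upkeep followed in direction. Of 28 named genes of protein import and chaperones 10 were lower and 2 higher, the higher count being 1 without replicate 8 or 10 at 39 wph or replicate 11, 12, 14 or 15 at 5 wph. Their shares were 35.7% and 7.14%, against 22.5% and 19.8% of all named genes. HSPD1 (Nfu_g_1_006007), the mitochondrial chaperonin, had 92.3 ± 6.19 CPM at 39 wph and 141 ± 17.5 CPM at 5 wph (log2 fold change -0.61 ± 0.09, adjusted p = 0.000486). PHB (Nfu_g_1_007577), prohibitin of the inner membrane, changed by -0.90 ± 0.15, adjusted p = 0.00119. Of 31 mitochondrial ribosomal proteins 8 were lower and none higher (and 0 at an unadjusted p below 0.05, with DESeq2 and with limma-voom). The 8 lower genes were 25.8%, near the 22.5% of all named genes, and the median log2 fold change was -0.38. The lower count was 4 to 5 without replicate 10 at 39 wph or replicate 14 at 5 wph. It was 5 with DESeq2, 5 with thinned counts and 0 when tested against a fold of 1.2.

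Ion pumping is the main use of ATP in brain. Of 24 named pumps and ion exchangers 12 were lower and 5 higher, and the higher count was 2 to 3 without replicate 9 or 10 at 39 wph or replicate 12 or 14 at 5 wph. The sodium pump beta subunit genes ATP1B3 (Nfu_g_1_016684) and ATP1B4 (Nfu_g_1_004723) were lower, with log2 fold changes of -0.48 ± 0.06 and -0.88 ± 0.11. SLC4A10 (Nfu_g_1_017621), a bicarbonate transporter of neurons and choroid plexus, had in contrast 279, 301, 286 and 293 CPM at 39 wph, against 151, 82.3, 138 and 163 CPM at 5 wph. Every old library held more than 1.5 times the highest young value (log2 fold change 1.13 ± 0.16, adjusted p = 0.000445).

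Proteins are made from charged tRNAs, and most of the enzymes that charge them were lower in old brains. Of 22 named aminoacyl-tRNA synthetases 15 were lower, none was higher (and 0 at an unadjusted p below 0.05, with DESeq2 and with limma-voom), and the median log2 fold change was -0.43. Their summed level was 1298 to 1361 CPM at 39 wph and 1674 to 2086 CPM at 5 wph. GARS (Nfu_g_1_011238), for glycine, had 60.0, 60.9, 53.6 and 54.8 CPM at 39 wph, against 103, 100.4, 138 and 102 CPM at 5 wph. All old libraries were below all young ones (log2 fold change -0.94 ± 0.10, adjusted p = 7.95e-05). FARSB (Nfu_g_1_016546), for phenylalanine, MARS (Nfu_g_1_021631), for methionine, and QARS (Nfu_g_1_001453), for glutamine, changed by -0.78 ± 0.08, -0.88 ± 0.10 and -0.76 ± 0.10 on the log2 scale.

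Ribosomal proteins of the cytosol showed no such shift. Of 34 in the large subunit 3 were higher and 3 lower (median -0.02, where the lower count was 5 without replicate 10 at 39 wph or replicate 12 at 5 wph), and of 27 in the small subunit 8 were higher and 2 lower (median 0.06). In the small subunit the higher count was 3 to 5 without replicate 6, 9 or 10 at 39 wph or replicate 11, 12, 14 or 15 at 5 wph and the lower count was 0 to 1 without replicate 6 or 10 at 39 wph or replicate 11 or 14 at 5 wph. RPS6 (Nfu_g_1_018184) had 592 ± 24.6 CPM at 39 wph and 521 ± 12.4 CPM at 5 wph (log2 fold change 0.19 ± 0.05, adjusted p = 0.0128). RPL22 had 84.8 ± 8.31 CPM at 39 wph and 69.3 ± 2.44 CPM at 5 wph in the copy Nfu_g_1_021077 (log2 fold change 0.29 ± 0.08, adjusted p = 0.0153) and 50.7 ± 1.46 CPM at 39 wph and 52.6 ± 2.59 CPM at 5 wph in Nfu_g_1_015480 (log2 fold change -0.05 ± 0.07, adjusted p = 0.657).

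Export and import through the nuclear pore precede translation. Of 37 named genes 19 were lower and none higher (and 0 at an unadjusted p below 0.05, with DESeq2 and with limma-voom), and the lower count was 10 to 12 without replicate 9 at 39 wph or replicate 14 or 15 at 5 wph. It was 12 with thinned counts and 2 when tested against a fold of 1.2. XPO5 (Nfu_g_1_014496), an exporter of small RNAs, had 77.0 ± 4.43 CPM at 39 wph and 103 ± 5.53 CPM at 5 wph (log2 fold change -0.42 ± 0.07, adjusted p = 0.000895), and the pore protein NUP155 (Nfu_g_1_006609) and the tRNA exporter XPOT (Nfu_g_1_011912) were lower, with log2 fold changes of -0.47 ± 0.08 and -0.49 ± 0.09. Splicing factors were lower in 27 and higher in 11 of 108 (25% and 10.2%, against 22.5% and 19.8% of all named genes). The higher count was 5 to 7 without replicate 6, 9 or 10 at 39 wph or replicate 11 or 14 at 5 wph. HNRNPR (Nfu_g_1_015095) fell by 0.58 (SE 0.06, adjusted p = 9.36e-05), whereas RBM26 (Nfu_g_1_003244) rose (0.62 ± 0.09, adjusted p = 0.000518).

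Chaperones of the cytosol moved in both directions. Of 46 named genes 17 were lower and 9 higher (37.0% and 19.6%, against 22.5% and 19.8% of all named genes). Lower were the subunits CCT8 (Nfu_g_1_022291) (-0.36 ± 0.05, adjusted p = 0.000459) and CCT5 (Nfu_g_1_011247) (-0.51 ± 0.12, adjusted p = 0.0105) of the chaperonin CCT, and so was HSPA4 (Nfu_g_1_004432), a cofactor of HSP70 (-0.42 ± 0.06, adjusted p = 0.000521). DNAJA4 (Nfu_g_1_008486), a J-domain protein, was higher, with 84.9, 78.5, 96.1 and 115 CPM at 39 wph, against 52.2, 44.6, 61.9 and 41.8 CPM at 5 wph (log2 fold change 0.91 ± 0.14, adjusted p = 0.000661). Its old and young libraries were apart. HSP90AA1 (Nfu_g_1_012354), the inducible HSP90, had 319.9 ± 21.3 CPM at 39 wph and 329 ± 24.1 CPM at 5 wph (log2 fold change -0.04 ± 0.06, adjusted p = 0.721).

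In the endoplasmic reticulum 11 of 37 named genes were lower, among them the disulphide isomerase PDIA3 (Nfu_g_1_018151) (-0.38 ± 0.06, adjusted p = 0.00110), and 4 were higher. The shares were 29.7% and 10.8%, against 22.5% and 19.8% of all named genes. Tested against a fold of 1.2, the lower count was 0 and the higher count 2. Sensors and regulators of stress were among those that were higher, with ERN1 (Nfu_g_1_007206), the sensor IRE1, at 54.1, 38.7, 43.0 and 45.7 CPM at 39 wph, against 25.4, 22.1, 20.5 and 23.4 CPM at 5 wph (log2 fold change 0.997 ± 0.11, adjusted p = 0.000129). There was no overlap of ages. XBP1 (Nfu_g_1_017231), the target of IRE1, changed by 0.33 ± 0.05, adjusted p = 0.00110, and CREBRF (Nfu_g_1_005213) by 0.73 ± 0.07, adjusted p = 4.03e-05.

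Routes of protein breakdown differed in direction. Of 31 named proteasome genes 18 were lower and none higher (and 0 at an unadjusted p below 0.05, with DESeq2 and with limma-voom), and the lower count was 10 to 11 without replicate 6 at 39 wph or replicate 14 or 15 at 5 wph. The lower share was 58.1%, against 22.5% of all named genes. The lower count was 13 with thinned counts and 1 when tested against a fold of 1.2. PSMD2 (Nfu_g_1_016553), of the regulatory particle, had 103 ± 9.90 CPM at 39 wph and 143 ± 8.30 CPM at 5 wph (log2 fold change -0.47 ± 0.07, adjusted p = 0.000977), and PSMA2 (Nfu_g_1_016822), of the core, 41.2 ± 2.54 CPM at 39 wph and 52.4 ± 3.82 CPM at 5 wph (log2 fold change -0.35 ± 0.08, adjusted p = 0.00693). Of 28 autophagy genes 11 were higher and none lower (and 0 at an unadjusted p below 0.05, with DESeq2 and with limma-voom), with a median of 0.15. The higher share was 39.3%, against 19.8% of all named genes. The higher count was 11 with thinned counts and 4 when tested against a fold of 1.2. Receptors that link cargo to the autophagosome were among the higher genes. OPTN (Nfu_g_1_004737) had 24.6, 23.2, 31.2 and 36.8 CPM at 39 wph, against 11.2, 12.8, 13.9 and 14.8 CPM at 5 wph, with each old library above each young one (log2 fold change 1.14 ± 0.16, adjusted p = 0.000434), SQSTM1 (Nfu_g_1_004683) changed by 0.79 ± 0.09, adjusted p = 0.000134 and NBR1 (Nfu_g_1_023288) by 0.42 ± 0.05, adjusted p = 0.000261. Ubiquitin enzymes were split evenly, with 16 higher and 16 lower of 96 (16.7% each, against 19.8% and 22.5% of all named genes). The lower count was 10 without replicate 15 at 5 wph.

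Of 27 tested genes on a wider list of neuron markers 23 were lower and 1 higher (median log2 fold change -0.38), and their summed level was 5019 to 5483 CPM at 39 wph and 6248 to 6449 CPM at 5 wph. How far this shift in the marker list bears on single genes of neurons was not tested. Inhibitory transmission showed lower levels of the genes that make and clear the transmitter. Of 26 named genes of GABA and glycine signalling 14 were lower and 4 higher, the higher count being 2 without replicate 6 or 9 at 39 wph or replicate 14 at 5 wph. SLC6A5 (Nfu_g_1_003134), the glycine transporter of glycinergic neurons, had 24.3, 37.4, 28.4 and 27.1 CPM at 39 wph, against 95.7, 89.02, 91.5 and 75.3 CPM at 5 wph. It differed 2.99-fold, and no library of one age reached the other (log2 fold change -1.58 ± 0.12, adjusted p = 1.46e-05). The glycine receptor subunit GLRA1 (Nfu_g_1_004311) had 52.8 ± 8.22 CPM at 39 wph and 92.4 ± 5.81 CPM at 5 wph (log2 fold change -0.81 ± 0.10, adjusted p = 0.000246), and SLC6A11 (Nfu_g_1_021535), a GABA transporter of astrocytes, 289 ± 42.9 CPM at 39 wph and 538 ± 63.3 CPM at 5 wph (log2 fold change -0.89 ± 0.10, adjusted p = 0.000148).

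GAD1, which makes GABA, was lower in its 3 copies, at log2 fold changes of -0.38 ± 0.07, adjusted p = 0.00287 for Nfu_g_1_017756, -0.24 ± 0.07, adjusted p = 0.0302 for Nfu_g_1_020197 and -0.27 ± 0.08, adjusted p = 0.0287 for Nfu_g_1_020340. The second missed the threshold without replicate 6, 9 or 10 at 39 wph or replicate 14 at 5 wph, and the third missed the threshold without replicate 6, 9 or 10 at 39 wph or replicate 11, 12 or 14 at 5 wph. Against this direction, GABRA5 (Nfu_g_1_012093), a GABA receptor subunit, was higher (0.56 ± 0.11, adjusted p = 0.00253).

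Cholinergic and monoaminergic genes were lower in 7 of 14 and higher in 1, and the higher count was 2 without replicate 6 at 39 wph. CHAT, which makes acetylcholine, was lower in both copies, with 61.4, 71.8, 62.5 and 67.7 CPM at 39 wph, against 93.9, 111, 100.9 and 104 CPM at 5 wph for Nfu_g_1_023167. The groups were apart (log2 fold change -0.64 ± 0.07, adjusted p = 0.00013), and the second copy Nfu_g_1_002978 changed by -1.20 ± 0.13, adjusted p = 9.6e-05. SLC18A3 (Nfu_g_1_002845), which loads acetylcholine into vesicles, had 3.96 ± 1.81 CPM at 39 wph and 11.02 ± 1.48 CPM at 5 wph (log2 fold change -1.47 ± 0.26, adjusted p = 0.00177). TPH2 (Nfu_g_1_008209), which makes serotonin in neurons, was below 5 CPM in all 8 libraries and lower in old fish (log2 fold change -1.74 ± 0.32, adjusted p = 0.00214).

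Glutamate signalling had more genes higher, 14 against 8 lower of 43, and the lower count was 4 without replicate 6 at 39 wph. Their shares were 32.6% and 18.6%, against 19.8% and 22.5% of all named genes. Scaffolds of the postsynaptic density were among those higher. GRID2IP (Nfu_g_1_023067), which binds the delta receptor at Purkinje cell synapses of mammals, had 295, 295, 297 and 325 CPM at 39 wph, against 180.2, 157, 153 and 203 CPM at 5 wph (log2 fold change 0.81 ± 0.08, adjusted p = 7.2e-05). SHANK2 was higher in the copies Nfu_g_1_010570 (0.62 ± 0.07, adjusted p = 7.9e-05) and Nfu_g_1_016200 (0.55 ± 0.08, adjusted p = 0.000745). Lower were SLC17A6 (Nfu_g_1_008435), the vesicular glutamate transporter of many excitatory neurons, with 105 ± 4.85 CPM at 39 wph and 128 ± 11.8 CPM at 5 wph (log2 fold change -0.29 ± 0.07, adjusted p = 0.0140), and the receptor subunit GRIN2C (Nfu_g_1_001314) (-0.25 ± 0.04, adjusted p = 0.00164).

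Release machinery and channels moved in both directions. Of 53 genes of the vesicle cycle 8 were higher and 13 lower. These were 15.1% and 24.5%, near the 19.8% and 22.5% of all named genes. DNM1 (Nfu_g_1_017256), dynamin of nerve terminals, fell by 0.55 (SE 0.06, adjusted p = 7.95e-05) and SYN1 (Nfu_g_1_009195), a vesicle phosphoprotein, by 0.46 (SE 0.06, adjusted p = 0.000177). BSN (Nfu_g_1_021716), a scaffold of the active zone, had 1268 ± 74.1 CPM at 39 wph and 960.4 ± 56.7 CPM at 5 wph (log2 fold change 0.40 ± 0.06, adjusted p = 0.000549). SNAP25 (Nfu_g_1_017443), a fusion protein, had 897 ± 49.5 CPM at 39 wph and 981 ± 25.1 CPM at 5 wph and did not pass (log2 fold change -0.13 ± 0.05, adjusted p = 0.0806). Of 30 potassium channel genes 8 were higher and 4 lower, with KCNMA1 (Nfu_g_1_023140), a calcium-activated channel, at 0.42 ± 0.06, adjusted p = 0.000509 and KCNJ15 (Nfu_g_1_013013), an inward rectifier, at -0.72 ± 0.11, adjusted p = 0.000617. The shares of potassium channel genes were 26.7% higher and 13.3% lower, against 19.8% and 22.5% of all named genes. The intracellular calcium channels ITPR3 (Nfu_g_1_015601) and ITPR1 (Nfu_g_1_020479) were higher, by 0.72 ± 0.07 and 0.48 ± 0.06 on the log2 scale, while the calcium buffer CALB2 (Nfu_g_1_008411) was lower (-0.89 ± 0.12, adjusted p = 0.000427).

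The axon skeleton was lower in its neurofilaments. NEFL (Nfu_g_1_006470) had 28.7, 35.2, 25.6 and 23.9 CPM at 39 wph, against 71.5, 73.8, 91.9 and 95.8 CPM at 5 wph. The 4 old libraries lay well below the 4 young ones (log2 fold change -1.55 ± 0.13, adjusted p = 2.34e-05), and the second copy Nfu_g_1_008939 changed by -1.18 ± 0.17, adjusted p = 0.000564. NEFM (Nfu_g_1_006718) was 2.03-fold and NEFH (Nfu_g_1_009338) 1.66-fold lower (log2 fold change -0.73 ± 0.10, adjusted p = 0.000508 for NEFH), as was the related filament INA (Nfu_g_1_015816) (-0.93 ± 0.08, adjusted p = 2.6e-05). Of 47 microtubule genes 21 were lower and 4 higher. DPYSL4 (Nfu_g_1_000834) and DPYSL5 (Nfu_g_1_018671), of the collapsin response family of growing axons, fell by 0.93 (SE 0.07, adjusted p = 1.07e-05) and 0.78 (SE 0.06, adjusted p = 1.96e-05). MAP1A (Nfu_g_1_014070), a protein of mature dendrites, went the other way (0.28 ± 0.05, adjusted p = 0.00216).

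Myelin genes divided. MBP, a protein of compact myelin, was lower in both copies, with a log2 fold change of -1.01 ± 0.10 in Nfu_g_1_016795 and -0.42 ± 0.06 in Nfu_g_1_012286. GPR17 (Nfu_g_1_000964), a marker of maturing precursors, had 3.25, 3.83, 3.83 and 3.23 CPM at 39 wph, against 8.14, 12.2, 12.2 and 9.43 CPM at 5 wph (log2 fold change -1.58 ± 0.18, adjusted p = 0.000142). Of 27 named genes 12 were lower and 4 higher, among these ENPP6 (Nfu_g_1_014623), a choline phosphodiesterase, with 58.0 ± 7.88 CPM at 39 wph and 29.4 ± 1.48 CPM at 5 wph (log2 fold change 0.98 ± 0.10, adjusted p = 7.65e-05), and CLDN11 (Nfu_g_1_015143), the tight junction protein of myelin (0.80 ± 0.20, adjusted p = 0.0113).

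GFAP (Nfu_g_1_007538), the filament of astrocytes and radial glia, had 503, 562, 568 and 337 CPM at 39 wph, against 466, 521, 491 and 511 CPM at 5 wph. Its ages overlapped and the difference did not pass (log2 fold change -0.01 ± 0.13, adjusted p = 0.957). FABP7 (Nfu_g_1_018689), a fatty acid binding protein of radial glia, had 182, 234.1, 177 and 138 CPM at 39 wph, against 369.5, 356, 385 and 385 CPM at 5 wph and was lower in all old libraries (log2 fold change -1.03 ± 0.12, adjusted p = 0.000142). S100B (Nfu_g_1_022580) changed by -0.82 ± 0.13, adjusted p = 0.000768. Of the 5 defining markers of these cells, GLUL (Nfu_g_1_020449) and SOX2 (Nfu_g_1_002515) did not pass either. Their log2 fold changes were -0.08 (adjusted p = 0.540) and -0.27 (adjusted p = 0.0552). In all, 12 of 29 genes of this list were lower and 4 higher (41.4% and 13.8%, against 22.5% and 19.8% of all named genes).

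Microglia and macrophages take up debris. CD68 (Nfu_g_1_022531), a protein of their lysosomes, had 32.7, 24.2, 35.0 and 21.01 CPM at 39 wph, against 8.91, 11.8, 14.3 and 11.1 CPM at 5 wph. No young library reached the lowest old one (log2 fold change 1.28 ± 0.18, adjusted p = 0.000517). AXL (Nfu_g_1_022569), a receptor for dying cells, had 18.8 ± 4.83 CPM at 39 wph and 8.21 ± 0.772 CPM at 5 wph (log2 fold change 1.21 ± 0.19, adjusted p = 0.000845), and PROS1 (Nfu_g_1_003248), a ligand of that receptor family, 13.5 ± 1.82 CPM at 39 wph and 6.25 ± 0.990 CPM at 5 wph (log2 fold change 1.11 ± 0.16, adjusted p = 0.000564). SIGLEC1 (Nfu_g_1_016812), a lectin of macrophages, was at 3.01, 3.71, 3.02 and 5.20 CPM at 39 wph, against 1.78, 0.479, 0.853 and 0.429 CPM at 5 wph (log2 fold change 2.19 ± 0.40, adjusted p = 0.00206), low but without overlap. Of 19 named genes 8 were higher and 1 was lower, and the lower count was 0 without replicate 6 at 39 wph or replicate 15 at 5 wph. These were 42.1% and 5.26%, against 19.8% and 22.5% of all named genes. Of the 4 defining microglia markers, ITGB2 (Nfu_g_1_014190) did not pass, with 31.5 CPM at 39 wph and 34.2 CPM at 5 wph (log2 fold change -0.12, adjusted p = 0.431). CD68, SLCO2B1 (Nfu_g_1_006100, 0.76, adjusted p = 0.0116) and 1 copy of APOE were higher. APOE had 179.9 ± 20.8 CPM at 39 wph and 119.6 ± 17.95 CPM at 5 wph in the copy Nfu_g_1_011018 (log2 fold change 0.59 ± 0.11, adjusted p = 0.00190), and the second copy Nfu_g_1_012304 was near 2 CPM at both ages.

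Interferon-stimulated and antiviral genes were higher in 18 of 29 and lower in 1, with a median log2 fold change of 0.70. ZNFX1 (Nfu_g_1_021289), a sensor of viral RNA, had 72.0, 46.5, 99.7 and 83.9 CPM at 39 wph, against 19.6, 19.7, 27.1 and 33.4 CPM at 5 wph. The old fish varied among each other but all lay above the young ones (log2 fold change 1.61 ± 0.23, adjusted p = 0.000486). NLRC5 (Nfu_g_1_008078), which switches on antigen presentation genes in mammals, had 21.5, 19.8, 27.5 and 28.6 CPM at 39 wph, against 10.9, 10.5, 10.03 and 10.3 CPM at 5 wph (log2 fold change 1.22 ± 0.14, adjusted p = 0.00014), and RSAD2 (Nfu_g_1_015349), viperin, 4.33 ± 0.996 CPM at 39 wph and 1.145 ± 0.586 CPM at 5 wph (log2 fold change 1.89 ± 0.33, adjusted p = 0.00169). Also higher were RNF213 (Nfu_g_1_006607), a large ubiquitin ligase (0.88 ± 0.11, adjusted p = 0.000195), and both copies of TRIM25, an activator of RNA sensing (Nfu_g_1_014319, 1.18 ± 0.20, adjusted p = 0.00150, and Nfu_g_1_004265, 1.52 ± 0.26, adjusted p = 0.00169). The gene that was lower, UBA7 (Nfu_g_1_020834), which activates ISG15, had a log2 fold change of -0.41 ± 0.12, adjusted p = 0.0303 and missed the threshold without replicate 6, 8 or 10 at 39 wph or replicate 11, 12 or 15 at 5 wph.

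B2M (Nfu_g_1_004499), the light chain of MHC class I molecules, had 13.1 ± 3.41 CPM at 39 wph and 6.40 ± 1.95 CPM at 5 wph (log2 fold change 1.03 ± 0.23, adjusted p = 0.00746), and 3 of 8 genes of antigen presentation were higher. Of 22 genes of complement and coagulation 8 were higher and 1 was lower, the first count being 5 without replicate 8 or 9 at 39 wph or replicate 12, 14 or 15 at 5 wph. C4B (Nfu_g_1_002738), a complement protein made by glia, had 55.3, 46.2, 85.2 and 70.1 CPM at 39 wph, against 13.5, 23.1, 29.2 and 43.1 CPM at 5 wph. Its groups did not overlap although the old libraries spread widely (log2 fold change 1.24 ± 0.27, adjusted p = 0.00549). Of 35 genes of cytokine and NF-kB signalling 10 were higher, among them IL2RB (Nfu_g_1_019663), an interleukin receptor chain (1.54 ± 0.30, adjusted p = 0.00310), and TLR5 (Nfu_g_1_017474), a receptor for flagellin (0.90 ± 0.15, adjusted p = 0.00155). A further 3 were lower. The shares of this list were 28.6% higher and 8.57% lower, against 19.8% and 22.5% of all named genes.

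Vessel genes were higher in 14 and lower in none of 34 (1 at an unadjusted p below 0.05, 0 with DESeq2 and 0 with limma-voom), and the count was 7 to 9 without replicate 10 at 39 wph or replicate 11, 12 or 14 at 5 wph. The higher share was 41.2%, against 19.8% of all named genes, and 27 log2 fold changes were above 0 and 7 below. The higher count was 9 with thinned counts, 9 with 16 libraries in the fit and 3 when tested against a fold of 1.2. SOX17 (Nfu_g_1_006884), a factor of arterial endothelium, had 20.01, 19.6, 23.1 and 26.3 CPM at 39 wph, against 13.2, 11.4, 10.03 and 7.93 CPM at 5 wph. The 2 ages did not overlap (log2 fold change 1.07 ± 0.15, adjusted p = 0.000518). ADGRL4 (Nfu_g_1_002457), an endothelial receptor, changed by 0.75 ± 0.09, adjusted p = 0.000183, and PDGFB (Nfu_g_1_019544), which recruits pericytes, by 0.78 ± 0.17, adjusted p = 0.00611. KDR (Nfu_g_1_017927), a receptor of VEGF, had 67.4 ± 9.36 CPM at 39 wph and 52.7 ± 4.96 CPM at 5 wph (log2 fold change 0.35 ± 0.11, adjusted p = 0.0297), with overlap, and missed the threshold without replicate 9 or 10 at 39 wph or replicate 11 or 14 at 5 wph. PDGFRB (Nfu_g_1_004375), another of the 4 defining vessel markers, was also higher (0.39, adjusted p = 0.0150). The remaining markers did not pass. TIE1 (Nfu_g_1_002350) had 36.8 CPM at 39 wph and 44.3 CPM at 5 wph (log2 fold change -0.27, adjusted p = 0.103), and CLDN5 (Nfu_g_1_010803) was at 0.62, adjusted p = 0.229. Of 20 genes of motile cilia 7 were higher, such as the dynein DNAH2 (Nfu_g_1_009528) (0.59 ± 0.10, adjusted p = 0.00145), although the ependymal markers FOXJ1 and RSPH1 stayed below 1.4 CPM.

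Proteoglycans of the brain matrix were lower in 16 of 38 and higher in 3, and the higher count was 1 without replicate 6 at 39 wph or replicate 12 or 14 at 5 wph. BCAN (Nfu_g_1_010932), brevican, had 283 ± 20.4 CPM at 39 wph and 442 ± 73.8 CPM at 5 wph (log2 fold change -0.64 ± 0.10, adjusted p = 0.000923) and TNR (Nfu_g_1_020017), tenascin-R, changed by -0.47 ± 0.07, adjusted p = 0.000625. ACAN (Nfu_g_1_018150), aggrecan of perineuronal nets, was higher, with 334, 267, 357 and 239 CPM at 39 wph, against 193, 219, 195 and 203 CPM at 5 wph and no overlap (log2 fold change 0.56 ± 0.11, adjusted p = 0.00335). Among collagens COL2A1 (Nfu_g_1_001498), of cartilage, had 5.30, 4.67, 3.25 and 3.46 CPM at 39 wph, against 23.4, 9.57, 6.83 and 45.5 CPM at 5 wph. The young libraries differed widely among each other and all exceeded the old ones (log2 fold change -2.32 ± 0.51, adjusted p = 0.00608). COL4A1 (Nfu_g_1_005913), of basement membranes, fell by 0.50 (SE 0.07, adjusted p = 0.000648), and COL12A1 (Nfu_g_1_000106) rose (0.64 ± 0.15, adjusted p = 0.0101).

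Genes of mitosis and DNA replication gave the 2 lists with the lowest medians. MKI67 (Nfu_g_1_022855), a marker of cycling cells, had 10.97, 14.02, 12.9 and 6.70 CPM at 39 wph, against 52.2, 56.5, 62.5 and 57.5 CPM at 5 wph. No other list had as low a median as mitosis (-1.29), with 48 of 59 genes lower. The single mitosis gene that was higher, CIT (Nfu_g_1_009354), a kinase of cytokinesis that is also found in neurons, changed by 0.43 ± 0.08, adjusted p = 0.00265. RRM1, which makes deoxynucleotides, was lower in both copies (Nfu_g_1_005253, -2.49 ± 0.22, adjusted p = 3.38e-05, and Nfu_g_1_000449, -0.77 ± 0.09, adjusted p = 0.000204). Of histone and HMG genes 22 of 33 were lower, among them both copies of H2AFX (Nfu_g_1_000275, -2.89 ± 0.40, adjusted p = 0.000421, and Nfu_g_1_011889, -2.82 ± 0.47, adjusted p = 0.00132). DLL1 (Nfu_g_1_005168), a Notch ligand of neuronal precursors, had 3.18 ± 0.813 CPM at 39 wph and 11.9 ± 1.52 CPM at 5 wph (log2 fold change -1.89 ± 0.20, adjusted p = 7.28e-05).

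Growth arrest and repair genes moved in both directions. Of 46 named genes of arrest and DNA damage 18 were higher and 9 lower. These were 39.1% and 19.6%, against 19.8% and 22.5% of all named genes. The lower count was 4 to 5 without replicate 6 or 9 at 39 wph or replicate 14 or 15 at 5 wph. It was 5 with DESeq2, 4 with thinned counts and 0 when tested against a fold of 1.2. CDKN1A, the inhibitor p21, had 62.7, 48.0, 66.0 and 86.5 CPM at 39 wph, against 13.997, 17.2, 15.1 and 15.4 CPM at 5 wph in the copy Nfu_g_1_011849. The lowest old value was above 2 times the highest young one (log2 fold change 2.08 ± 0.16, adjusted p = 1.8e-05), and the copy Nfu_g_1_020871 changed by 1.97 ± 0.33, adjusted p = 0.00125. GADD45B was higher in both copies (Nfu_g_1_002546, 1.53 ± 0.16, adjusted p = 6.51e-05, and Nfu_g_1_014962, 3.08 ± 0.39, adjusted p = 0.000263), and SESN1 (Nfu_g_1_018970), which restrains mTOR, had 113 ± 14.5 CPM at 39 wph and 62.1 ± 0.797 CPM at 5 wph (log2 fold change 0.87 ± 0.09, adjusted p = 5.72e-05). The repair genes PARP1 (Nfu_g_1_018647) (-0.48 ± 0.10, adjusted p = 0.00438) and RAD21 (Nfu_g_1_001795) (-0.41 ± 0.06, adjusted p = 0.000904) were lower.

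Chromatin enzymes were balanced in number, with 11 higher and 12 lower of 50. These were 22% and 24%, near the 19.8% and 22.5% of all named genes. DNMT3A (Nfu_g_1_019101), a DNA methyltransferase, had 77.6 ± 2.51 CPM at 39 wph and 123.1 ± 5.96 CPM at 5 wph (log2 fold change -0.67 ± 0.06, adjusted p = 2.71e-05) and HDAC1 (Nfu_g_1_016470), a histone deacetylase, changed by -0.53 ± 0.06, adjusted p = 9.54e-05. HDAC9 (Nfu_g_1_006215) was higher (0.85 ± 0.10, adjusted p = 0.000181), and so were EZH1 (Nfu_g_1_007672), of Polycomb complex 2 (0.64 ± 0.08, adjusted p = 0.000226), and KMT2A (Nfu_g_1_000731), a histone methyltransferase of the opposing group (0.47 ± 0.06, adjusted p = 0.000218).

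Lipid genes were lower in 11 and higher in 6 of 33 (33.3% and 18.2%, against 22.5% and 19.8% of all named genes). ELOVL1 (Nfu_g_1_022676), which elongates fatty acids, had 21.9, 23.4, 18.3 and 15.4 CPM at 39 wph, against 45.05, 49.9, 67.8 and 41.8 CPM at 5 wph (log2 fold change -1.37 ± 0.16, adjusted p = 0.00015), with no overlap. ACLY (Nfu_g_1_012075), which supplies acetyl-CoA, fell by 0.82 (SE 0.10, adjusted p = 0.000195), and SQLE (Nfu_g_1_017355), of sterol synthesis, had 1.18 ± 0.433 CPM at 39 wph and 4.06 ± 1.03 CPM at 5 wph (log2 fold change -1.78 ± 0.30, adjusted p = 0.00131). INSIG1 (Nfu_g_1_006922), the brake on that pathway, did not pass (log2 fold change -0.14 ± 0.17, adjusted p = 0.592). SREBF1 (Nfu_g_1_019636), its transcription factor for fatty acids, rose (0.48 ± 0.09, adjusted p = 0.00224), and ABCA1 (Nfu_g_1_007147), which exports cholesterol, had 710.5 ± 86.5 CPM at 39 wph and 367 ± 7.31 CPM at 5 wph (log2 fold change 0.95 ± 0.08, adjusted p = 1.81e-05).

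Teleost fish keep many genes in 2 or more copies. The study named most genes by their best protein alignment to human, so relatives of one family can also share a symbol. Whether genes called copies here arose by duplication in fish was not tested. A total of 619 symbols had at least 2 tested copies, 1345 genes in all. All copies were higher for 60 symbols and all lower for 67. Some but not all copies passed, in one direction only, for 270, none passed for 200, and copies changed in opposite directions for 22. Opposite change was thus the least frequent of these outcomes, where 19.8% of all named genes were higher and 22.5% lower. How often unrelated genes would differ in this way was not tested. These 22 symbols gave 28 pairs of a higher and a lower copy, and in all 28 the log2 ratio of the copies did not overlap between ages. The exact permutation p of each ratio was 0.0286 (also after adjustment over the 28 pairs), the smallest that 4 against 4 allows. As the pairs were chosen on the same libraries, this p is a description of them only. Reads shared between near-identical copies could also blur or shift single values.

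For many genes described above, further copies changed in the same direction. In ion pumping this was ATP1B3 (Nfu_g_1_005136, -0.42 ± 0.08 as log2 fold change, here and in the rest of the paragraph), and in energy metabolism ATP5A1 (Nfu_g_1_009250, -0.56 ± 0.10) and ACLY (Nfu_g_1_022801, -0.35 ± 0.07). CSRNP1 was higher in its second copy (Nfu_g_1_011365, 1.37 ± 0.13, adjusted p = 3.72e-05), as were SHANK2 in its remaining copy (Nfu_g_1_008152, 0.27 ± 0.06) and NR1D2 in its remaining copy (Nfu_g_1_010960, 0.58 ± 0.10). HLF was higher in all 4 copies (Nfu_g_1_001056, 0.85 ± 0.15, Nfu_g_1_023410, 0.54 ± 0.09, and Nfu_g_1_016584, 0.34 ± 0.11), of which the last missed the threshold without replicate 8, 9 or 10 at 39 wph or replicate 11, 12 or 14 at 5 wph. Lower were DPYSL5 (Nfu_g_1_021724, -0.81 ± 0.09, adjusted p = 8.89e-05), HNRNPR (Nfu_g_1_010178, -0.30 ± 0.05, and Nfu_g_1_000098, -0.38 ± 0.06), DNMT3A (Nfu_g_1_021728, -0.23 ± 0.06) and DLL1 (Nfu_g_1_003154, -0.79 ± 0.16, and Nfu_g_1_013765, -0.58 ± 0.15), whose last copy missed the threshold without replicate 14 at 5 wph. HSPA4 (Nfu_g_1_005172, -0.21 ± 0.07) missed the threshold without replicate 6, 8, 9 or 10 at 39 wph or replicate 11, 12 or 14 at 5 wph, and PDIA3 (Nfu_g_1_009983, -0.42 ± 0.12) missed the threshold without replicate 6 or 9 at 39 wph or replicate 14 at 5 wph.

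In others a further copy did not pass (values again as log2 fold changes). SLC4A10 had copies at 0.04 ± 0.05, adjusted p = 0.633 (Nfu_g_1_008642) and -0.21 ± 0.13, adjusted p = 0.277 (Nfu_g_1_020512), beside the one that was more than 2-fold higher. ENPP6 (Nfu_g_1_014660) was at -0.02 ± 0.17, adjusted p = 0.959 and SLC2A1 (Nfu_g_1_001065) at 0.02 ± 0.13, adjusted p = 0.918. CPT1A (Nfu_g_1_022870, -0.11 ± 0.09, adjusted p = 0.408), GFRA2 (Nfu_g_1_014193, 0.10 ± 0.08, adjusted p = 0.418), NRG1 (Nfu_g_1_003116, -0.02 ± 0.16, adjusted p = 0.951) and RAD21 (Nfu_g_1_010021, -0.02 ± 0.05, adjusted p = 0.764) likewise had a copy near 0, and so did KCNMA1 (Nfu_g_1_002749, 0.13 ± 0.05, adjusted p = 0.0954), MAP1A (Nfu_g_1_022061, 0.11 ± 0.06, adjusted p = 0.169) and RNF213 (Nfu_g_1_014340, -0.20 ± 0.10, adjusted p = 0.189). B2M (Nfu_g_1_013414) was at 0.53 ± 0.21, adjusted p = 0.0788, above 0 but with a wide error.

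VIM, vimentin, had the pair with the largest contrast together with NR1D2. VIM had 16.3, 15.1, 12.9 and 17.4 CPM at 39 wph, against 45.8, 39.1, 56.1 and 96.5 CPM at 5 wph in Nfu_g_1_021146, and 82.1, 59.7, 60.0 and 48.4 CPM at 39 wph, against 43.3, 38.05, 47.8 and 46.95 CPM at 5 wph in Nfu_g_1_020179. The log2 ratio of the second to the first copy was 1.98 ± 0.38 at 39 wph and -0.35 ± 0.47 at 5 wph (SD, n = 4), so that the copy with more counts was not the same at both ages. The second copy alone missed the threshold without replicate 12 at 5 wph. EZH2, the methyltransferase of Polycomb complex 2, had 102, 99.2, 123.9 and 119 CPM at 39 wph, against 73.0, 64.7, 66.1 and 62.4 CPM at 5 wph in Nfu_g_1_007567, and 30.4, 29.0, 33.8 and 35.3 CPM at 39 wph, against 49.9, 54.3, 52.5 and 57.5 CPM at 5 wph in Nfu_g_1_011320. The first was higher in all old libraries and the second lower in all (0.74 ± 0.09, adjusted p = 0.000143 and -0.74 ± 0.09, adjusted p = 0.000142).

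FN1, fibronectin, showed the same layout, with a log2 fold change of 0.84 ± 0.11, adjusted p = 0.000256 for Nfu_g_1_003374 and -0.81 ± 0.08, adjusted p = 4.63e-05 for Nfu_g_1_017544. ABCA1 was higher in Nfu_g_1_007147 and lower in Nfu_g_1_004730, with a log2 fold change of -0.77 ± 0.13 (adjusted p = 0.00168). The other pairs are of KLF11, FOXO3, MYH10, MAP2, CAMK2D, ATP2A2, NDRG4, MAT2A and further genes, with differences of the log2 ratio between 0.38 and 2.33 over all 28.

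**Figure D4:**
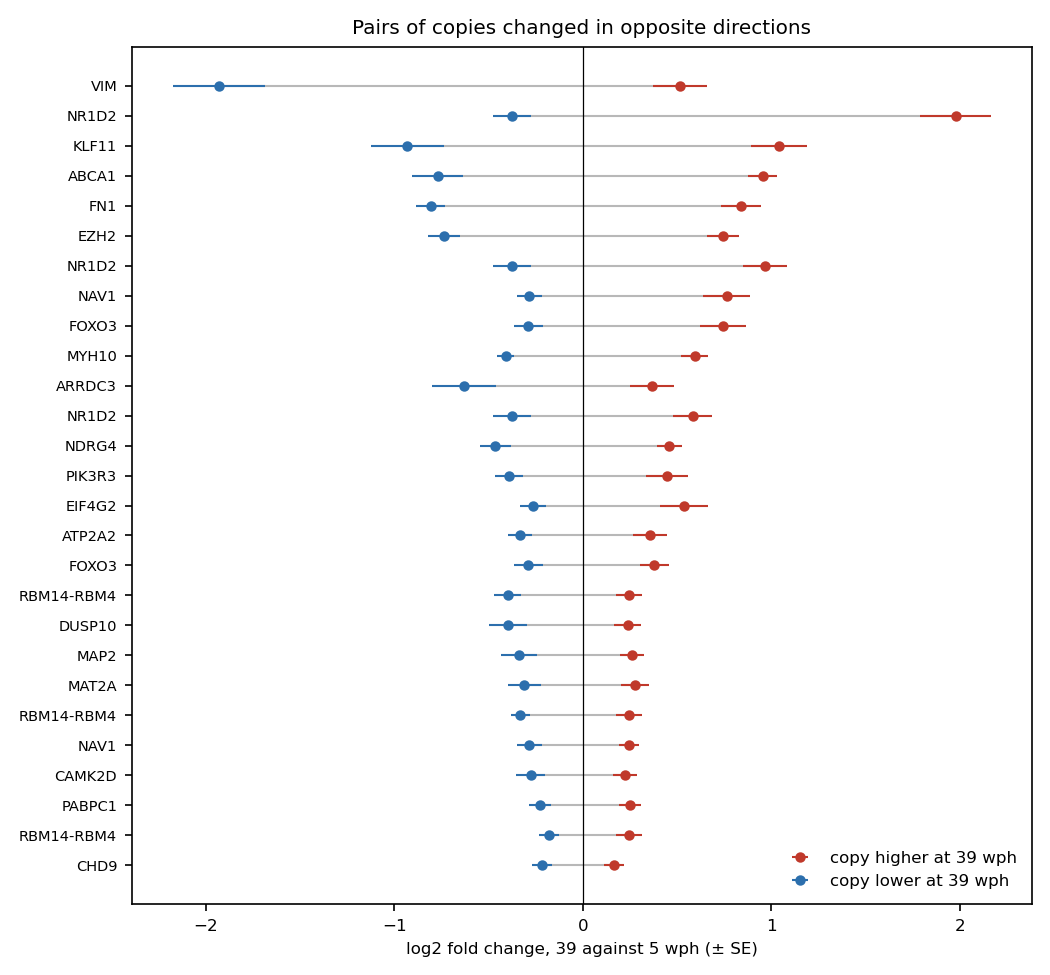
Log2 fold change (± SE) at 39 against 5 wph of pairs of copies (genes with the same symbol) that changed in opposite directions. The higher copy is to the right of 0 and the lower copy to the left. Pairs are ordered by the difference of the 2 values, from VIM and NR1D2 at the top to CHD9 at the bottom.

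Marker genes of tissues other than brain differed between the groups, and the part of such tissues in the results was not tested. Skeletal muscle markers (TNNI2, MYLPF, MYL1 and MYOM2, of which 4 of 4 were lower) are given above by their sums. The haemoglobin gene HBG1 (Nfu_g_1_007641) had 19.8, 77.3, 77.1 and 16.7 CPM at 39 wph, against 94.9, 242, 142 and 81.3 CPM at 5 wph (log2 fold change -1.57 ± 0.47, adjusted p = 0.0300) and missed the threshold without replicate 6 or 10 at 39 wph or replicate 12 or 14 at 5 wph. GH1 (Nfu_g_1_002728), growth hormone of the pituitary, had 66.9, 138, 0.464 and 336 CPM at 39 wph, against 9.93, 1.79, 0.213 and 18.9 CPM at 5 wph. The libraries of each age spread over more than 10-fold and the ages overlapped, so the log2 fold change of 4.29 ± 1.16, adjusted p = 0.0183 varied with single fish and missed the threshold without replicate 12 or 14 at 5 wph. Of 5 liver and plasma markers AHSG (Nfu_g_1_018164), a plasma glycoprotein, had 687 ± 62.6 CPM at 39 wph and 900.4 ± 64.3 CPM at 5 wph (log2 fold change -0.39 ± 0.07, adjusted p = 0.00218). The further markers APOB, FGA, FGB and HPX were at most 4.31 CPM in every library of both ages. Liver as a source of AHSG was not tested.

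Levels in the 8 further libraries placed the lists differently, as a description without a test, in which MZM-0410 at 5 wph stands against each other group. The summed level of immediate early genes was 1671 to 1888 CPM at 5 wph, 2464 to 2872 CPM at 12 wph and 2895 to 3434 CPM at 39 wph in MZM-0410, and 2424 to 2886 CPM in GRZ at 5 wph. For glucocorticoid targets these ranges were 2293 to 2478, 3544 to 4337 and 3064 to 4310.4 CPM by age, and 2960.2 to 3691 CPM in GRZ. Young MZM-0410 fish thus had the lowest sums of the 4 groups in both lists, below GRZ fish of the same age. The sums at 12 wph lay below those at 39 wph for immediate early genes and overlapped them for glucocorticoid targets. Interferon and antiviral genes summed to 676 to 879.9, 919 to 1537 and 969 to 1703 CPM by age, and to 723 to 1358 CPM in GRZ, where 1 library stood above the other 3.

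FOSB averaged 13.6, 70.6 and 80.3 CPM at 5, 12 and 39 wph, and 71.2 CPM in GRZ. FKBP5 averaged 66.0, 636 and 519 CPM at 5, 12 and 39 wph, and 453 CPM in GRZ. For RTN4RL2 the means were 23.1, 65.2 and 88.9 CPM at 5, 12 and 39 wph, and 71.5 CPM in GRZ, so that the means of all these genes were lowest in young MZM-0410 fish.

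Energy and neuron genes had another layout. ATP synthase genes summed to 1608 to 1884, 1474 to 1609 and 1093 to 1380.1 CPM at 5, 12 and 39 wph, and to 1614 to 1879 CPM in GRZ. The wider list of neuron markers summed to 6248 to 6449, 6153 to 6416 and 5019 to 5483 CPM by age, and to 6071 to 6329.8 CPM in GRZ. Here old fish had the lowest sums, and GRZ fish lay near young MZM-0410 fish. Mitosis genes summed to 1159 to 1280.0, 886 to 979 and 782 to 848 CPM by age, with most of the difference before 12 wph, and to 910.3 to 1032 CPM in GRZ.

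**Figure D5:**
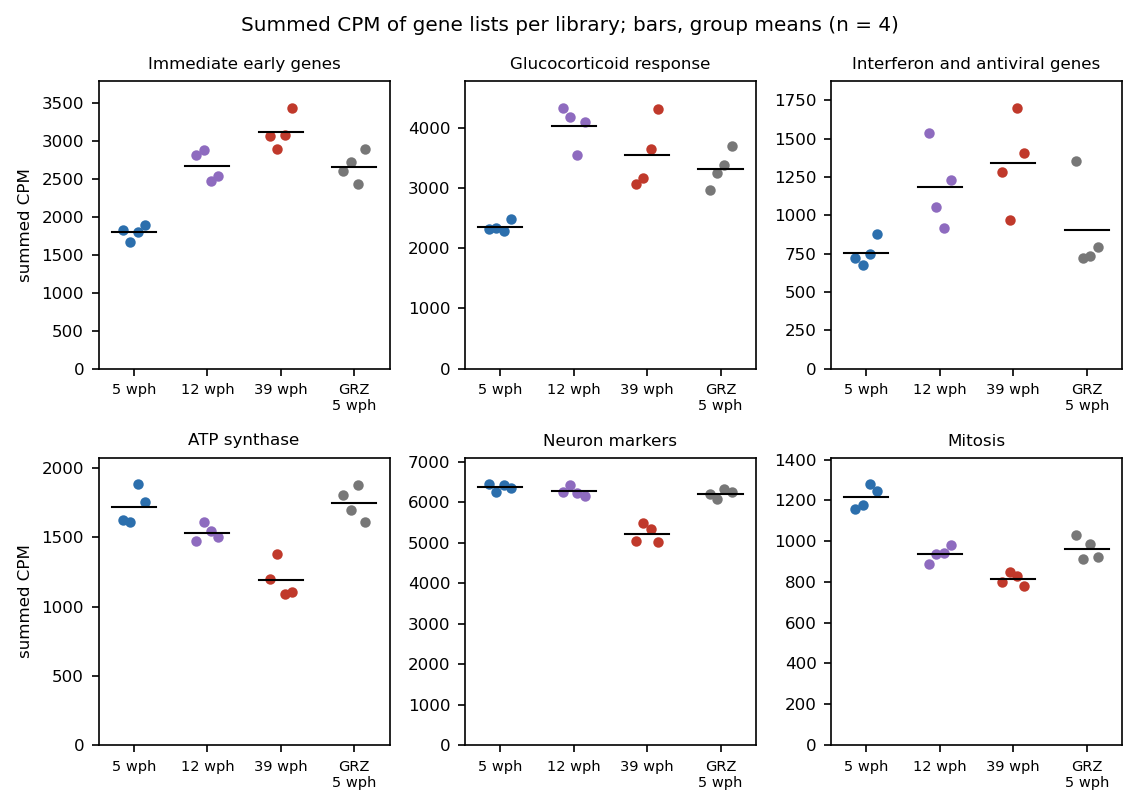
Summed CPM of 6 gene lists in each of the 16 libraries, with MZM-0410 at 5, 12 and 39 wph from left to right and GRZ at 5 wph beside them; bars mark group means and each axis starts at 0. Immediate early and glucocorticoid lists are lowest in MZM-0410 at 5 wph, ATP synthase and neuron markers in MZM-0410 at 39 wph.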

How the data were processed

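The values are counts per gene that the authors deposited for 16 brain libraries of 4 groups of 4. By the labels and the study's methods, RNA was taken from protein lysates, ribosomal RNA was depleted, and libraries were stranded. The authors aligned reads with TopHat2 (2.1.0, after bcl2fastq 1.8.4) to the genome Nfu_20150522 and counted them with featureCounts (1.5.0) on their own annotation, without strand, so a gene and an overlapping antisense gene cannot be told apart. A deposited total of counts, not a number of molecules, is the depth, and it was 3.93 to 8.74 M in the 8 libraries compared. Libraries are separate samples by their labels, and p-values measure the spread between them.

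The 4 MZM-0410 libraries at 39 wph were set against the 4 at 5 wph with edgeR (4.0.16, R 4.3.3): filterByExpr, TMM scaling, the quasi-likelihood test and Benjamini-Hochberg adjustment over all genes tested, at 0.05, after a test on simulated data. The study itself fitted pairs of ages with DESeq2, here an alternative (1.42.0) beside limma-voom (limma 3.58.1), other scalings and filters, thinned counts, larger sets of libraries and each library left out. CPM are counts per 1000000 counts of the scaled total, and single values were compared by exact permutation tests. SE is that of the log2 fold change, derived as its absolute value over the square root of the F statistic of the quasi-likelihood test. Ratios of copies used a prior count of 2.

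Symbols are human orthologue names paired with the gene IDs in the study's supplementary tables, held in part. A total of 5352 genes had 1 symbol, and 14 with more than 1 were left unnamed. No ID matched the gene table of the assembly at hand, and no sequence is shown. The genes and lists were chosen with earlier results of these data known. Named are the 12 genes per direction with the smallest p and with the largest fold change (symbol held, no overlap, average log2 CPM of 1 or more), per list up to 4 members with the smallest p, the extremes and members against the majority, all copies of these, a fixed panel of markers, and the 2 unnamed genes per direction with the largest fold change. Some of these genes are not reported here.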

Additional observations from a re-analysis of the deposited data

Results flagged for a closer look

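In a group of 4 libraries, the highest or lowest value was set apart from the other 3 where its gap to the nearest made up most of the range of the group, by Dixon's criterion for 4 values. Chance gives this in about 1 of 20 groups. Among 251 of the genes named here it held for 26 of 502 groups (5.18%), a share near that of chance, and it also held for the total count of 5 wph replicate 12 (8.24 M, against 3.93 to 4.63 M in the other 3 libraries of that age).

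In 39 wph replicate 10, NR1D2 (Nfu_g_1_020882) was at 66.2 CPM, against 42.2 to 43.2 CPM in the other 3 old libraries, FN1 (Nfu_g_1_003374) at 210.0 CPM, against 147 to 153 CPM, and HLF (Nfu_g_1_000888) at 80.9 CPM, against 59.1 to 62.4 CPM. The same library had the highest GRID2IP (Nfu_g_1_023067) at 325 CPM and ADGRL4 (Nfu_g_1_002457) at 25.9 CPM, and the lowest MARS (Nfu_g_1_021631) at 21.5 CPM and PSMA2 (Nfu_g_1_016822) at 37.4 CPM. In 39 wph replicate 8, CALB2 (Nfu_g_1_008411) was at 38.5 CPM, against 26.8 to 27.4 CPM, and GAD1 (Nfu_g_1_020340) at 119.8 CPM, against 93.7 to 95.9 CPM. LSAMP (Nfu_g_1_005605) was highest there at 11.3 CPM, and KCNMA1 (Nfu_g_1_023140) at 344 CPM and TRIM25 (Nfu_g_1_004265) at 3.83 CPM were lowest. H2AFX (Nfu_g_1_011889) was at 1.86 CPM in 39 wph replicate 9, against 0.346 to 0.482 CPM in the other old libraries. In 39 wph replicate 6, HNRNPR (Nfu_g_1_015095) was lowest at 59.5 CPM and SOD2 (Nfu_g_1_018932) highest at 30.5 CPM.

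At 5 wph, replicate 14 had the highest PHB (Nfu_g_1_007577) at 48 CPM, against 30.0 to 32.3 CPM in the other young libraries, GARS (Nfu_g_1_011238) at 138 CPM, against 100.4 to 103 CPM, QARS (Nfu_g_1_001453) at 72.5 CPM, against 54.9 to 56.5 CPM, PARP1 (Nfu_g_1_018647) at 85.3 CPM, against 67.9 to 69.0 CPM, and CHRDL2 (Nfu_g_1_005343) at 12.2 CPM, against 8.73 to 9.16 CPM. In replicate 11, IGFBP2 (Nfu_g_1_003732) was lowest at 23.7 CPM and CHN1 (Nfu_g_1_014035) highest at 67.4 CPM, and Nfu_g_1_025591 had 0.509 CPM, against 0 in the other 3. ACLY (Nfu_g_1_012075) was highest in replicate 12 at 103 CPM. SESN1 (Nfu_g_1_018970) was highest in replicate 15 at 63.2 CPM, against 61.6 to 61.7 CPM, and so was HLF (Nfu_g_1_001056) at 21.4 CPM, against 15.2 to 16.0 CPM.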

How the results depend on the processing

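No paired analysis was possible because the replicate numbers of the 39 wph libraries (6, 8, 9 and 10) and the 5 wph libraries (11, 12, 14 and 15) are not shared. Tested against a fold of 1.2 in place of 0 (edgeR glmTreat), 773 genes were higher and 766 lower, a stricter question by construction. Under the other 10 alternatives the counts were between 1889 and 2245 higher and between 1760 and 2492 lower, each within 1.5 times of 2203 and 2257, and the median log2 fold change of all genes moved by less than 0.03. Leaving out each library in turn gave 1607 to 2070 higher and 1712 to 2235 lower genes, the fewest without 5 wph replicate 14, and 1362 and 1447 genes passed in all 8 of these fits. Among 251 of the genes named here no call changed direction under any of these fits (edgeR, DESeq2 or limma-voom), and 230 had passed the threshold. Of these, 212 passed without each single library, and 70 calls over 8 fits were lost. The 11 other alternatives lost 74 calls, 49 of them under the test against a fold of 1.2. Copies that had not passed gained a call in SNAP25 (Nfu_g_1_017443) with library totals alone (adjusted p = 0.0465) and without 39 wph replicate 8 (adjusted p = 0.0328), B2M (Nfu_g_1_013414) with thinned counts (0.0459) and without 5 wph replicate 15 (0.0151), KCNMA1 (Nfu_g_1_002749) without 5 wph replicate 12 (0.0414) and SLC4A10 (Nfu_g_1_020512) without 39 wph replicate 10 (0.0415). Of 129 member counts of the lists, 97 moved more than 1.5 times under that test, 8 to 26 without a single library and 0 to 13 otherwise. The ratios of the 28 pairs of copies kept their direction and their exact p with prior counts of 0.5 and 5. The difference in genes detected was 953 and 1172 genes at minimum counts of 5 and 10, and 48, 71 and 35 genes at 1, 5 and 10 counts after thinning. Total counts at 5 wph are lower in 3 libraries, which limits genes below about 1 CPM. Symbols cover 20.0% of the annotated genes and come from lists ranked by change, so shares of named genes do not stand for the genome.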

Other observations

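Genes that specify neurons in development were mostly lower in old brains. Of 57 named neurogenic factors 34 were lower and 5 higher at 39 wph, and the higher count was 3 without replicate 6 or 8 at 39 wph or replicate 12 or 14 at 5 wph. POU3F1 (Nfu_g_1_010921), a POU factor of neural precursors, had 15.2, 16.3, 15.9 and 14.1 CPM at 39 wph, against 29.0, 29.4, 31.8 and 33.2 CPM at 5 wph, without overlap (log2 fold change -1.002 ± 0.09, adjusted p = 3.37e-05). LHX9 (Nfu_g_1_002444), a LIM homeobox factor, had 80.6 ± 3.11 CPM at 39 wph and 127 ± 7.81 CPM at 5 wph (log2 fold change -0.66 ± 0.06, adjusted p = 4.02e-05). TCF4 (Nfu_g_1_018260), a partner of the proneural factors, was among those that were higher (log2 fold change 0.28 ± 0.07), and so was FEZF2 (Nfu_g_1_003785), a factor of deep-layer cortical neurons in mammals (log2 fold change 0.93 ± 0.24). Of 52 genes of Notch, Wnt and BMP signalling 16 were lower and 9 higher, and the higher count was 5 without replicate 12 at 5 wph. Their shares were 30.8% and 17.3%, against 22.5% and 19.8% of all named genes, with a median log2 fold change of -0.07. HES6 (Nfu_g_1_006848), a Notch pathway factor of differentiating precursors, and FZD10 (Nfu_g_1_009051), a Wnt receptor, were lower (log2 fold changes -0.92 ± 0.09 and -0.54 ± 0.08), while CHRDL2 (Nfu_g_1_005343), an antagonist of BMP, was higher, with 15.7, 17.1, 17.6 and 18.2 CPM at 39 wph, against 9.16, 8.73, 12.2 and 8.79 CPM at 5 wph (log2 fold change 0.83 ± 0.13, adjusted p = 0.000899).

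Genes of axon guidance were lower in 16 and higher in 9 of 51. These were 31.4% and 17.6%, against 22.5% and 19.8% of all named genes, with a median log2 fold change of -0.11. Their summed level was 4832 to 4926 CPM at 39 wph and 5098 to 5405 CPM at 5 wph. ROBO3 and EPHA8, named next, were among the 9 that were higher. ROBO3, a receptor of the Slit family that acts in midline crossing, was higher in both copies (Nfu_g_1_000719, log2 fold change 0.51 ± 0.07, and Nfu_g_1_017307, 0.53 ± 0.11), as was EPHA8 (Nfu_g_1_014766), a receptor of ephrins, with 44.6 ± 2.999 CPM at 39 wph and 28.5 ± 3.28 CPM at 5 wph (log2 fold change 0.64 ± 0.09, adjusted p = 0.000588). Of 68 neuronal adhesion molecules 19 were lower, such as ALCAM (Nfu_g_1_000653) with 51.7, 59.3, 61.5 and 54.03 CPM at 39 wph, against 82.5, 89.4, 94.9 and 86.2 CPM at 5 wph (log2 fold change -0.64 ± 0.07, adjusted p = 0.000149), and 5 were higher, such as LSAMP (Nfu_g_1_005605), a protein of limbic neurons in mammals (log2 fold change 1.002 ± 0.16). The shares of adhesion molecules were 27.9% lower and 7.35% higher, against 22.5% and 19.8% of all named genes. Neuropeptide genes were higher in 7 and lower in 2 of 23 (30.4% and 8.70%, against 19.8% and 22.5% of all named genes). TACR2 (Nfu_g_1_003352), a tachykinin receptor, had 28.2, 24.3, 22.97 and 26.7 CPM at 39 wph, against 16.3, 8.61, 13.7 and 13.1 CPM at 5 wph (log2 fold change 1.03 ± 0.16, adjusted p = 0.000845), and PCSK2 (Nfu_g_1_002792), a convertase that cuts peptide precursors, had 218 ± 9.20 CPM at 39 wph and 171 ± 19.6 CPM at 5 wph (log2 fold change 0.35 ± 0.07, adjusted p = 0.00539). The somatostatin gene SST (Nfu_g_1_014236) had 3.62, 5.87, 3.94 and 4.16 CPM at 39 wph, against 5.60, 1.196, 3.20 and 4.72 CPM at 5 wph, with overlap of the ages (log2 fold change 0.36 ± 0.37, adjusted p = 0.521). Antioxidant genes were lower in 8 and higher in 4 of 29, and the lower count was 5 without replicate 9 at 39 wph or replicate 14 at 5 wph. These were 27.6% and 13.8%, near the 22.5% and 19.8% of all named genes. The lower count was also 5 with thinned counts and 2 when tested against a fold of 1.2. SOD2 (Nfu_g_1_018932), the superoxide dismutase of mitochondria, had 28.5 ± 1.37 CPM at 39 wph and 43.3 ± 5.53 CPM at 5 wph (log2 fold change -0.60 ± 0.10, adjusted p = 0.000984), whereas NFE2L2 (Nfu_g_1_017537), the transcription factor NRF2, was higher (log2 fold change 0.30 ± 0.06).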
